A study of Mus musculus with 8 samples.

Results

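Chemokines and their receptors were followed through the naive corneas of 2 inbred mouse strains. The family was taken as every protein-coding gene named Ccl, Cxcl, Ccr, Cxcr or Ackr with a number, plus Xcl1, Xcr1, Cx3cl1, Cx3cr1 and Pf4, whose values were not constant over the corneas. This gave 42 genes, 29 ligands and 13 receptors, of 31314 genes that were not constant and 54532 listed. A further 25 entries carried such a name but were at 0 in all 8 corneas, 18 of them on assembled chromosomes and 7 on unplaced scaffolds. Cxcl11 was annotated as a polymorphic pseudogene and was not counted among the members.

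Total RNA came from 4 corneas of BALB/cN mice (labelled BALB/c) and 4 corneas of C57BL/6N mice, all male and without treatment. The age of these mice was not given for the RNA samples, and nothing in the labels says whether each cornea came from a separate mouse, so the p-values measure the spread between these corneas. The strand-specific libraries held between 29682294 and 41152697 reads assigned to genes. The deposited rlog values are log2 values normalized for library size that are shrunk towards the mean of a gene, so read counts were recovered from them and differences in both are given. "Reads" below are these recovered counts, and "normalized reads" are reads divided by the size factor of the library.

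Chemokines are small secreted proteins that direct the movement of leukocytes along concentration gradients. They are named by the spacing of their first cysteines (CC, CXC, C and CX3C) and act on G protein-coupled receptors of the matching class, while atypical receptors bind the same ligands and remove them without G protein signalling. The normal cornea has no blood vessels and few leukocytes, and after injury its epithelial and stromal cells release chemokines that recruit neutrophils and monocytes.

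The corneas differed in tissue content within a strain. The summed normalized reads of 7 keratocyte markers of the stroma were 96636 in BALB/cN cornea 2, 47577 in C57BL/6N cornea 3 and 51545 in C57BL/6N cornea 4, against 302194 to 439539 in the other 5. The same 3 corneas had the lowest sums of 5 general leukocyte markers, at 101, 109 and 48.7, against 283 to 399. The strains overlapped in both sums. Corneal epithelial markers such as Krt12 and Krt5 were abundant in every cornea and no gene of that list was called between the strains. Of the 17 cell type lists, 16 held no gene that passed the test between strains. The exception was the list of conjunctival markers, in which the keratins Krt13, Krt4 and Krt19 were called lower in BALB/cN. The goblet cell mucin Muc5ac of the same list lay the other way, with at least 34 reads in every BALB/cN cornea and at most 4 in any C57BL/6N cornea, a difference of 2.19 that was not called (adjusted p = 0.0225 from limma). In the list sum, BALB/cN corneas had 1958 to 2536 normalized reads of conjunctival markers and C57BL/6N corneas 13221 to 19799, most of them from Krt13 (means 1562 and 15966).

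Most of the family was close to the limit of detection. Of the 42 genes, 26 had fewer than 10 normalized reads on average and 8 had 100 or more. Cx3cl1 alone gave 49.1% of all reads of the family. In each cornea the family summed to between 3348 and 5318 reads. Levels per kilobase of exon allow only a rough comparison between genes, since the exons of all annotated transcripts of a gene were merged. Merged exons cover the whole gene in Cxcl1 and Cxcl2 (1875 and 2068 bases) and reach 8176 bases in Cxcl12 and 10260 in Ccr9. The order was led by Cx3cl1 with 539.6 normalized reads per kilobase, followed by Cxcl14 with 142, the atypical receptor Ackr3 with 134 and Cxcl16 with 126. Ccl25 followed with 51.8 and Ccl27a with 44.7. Below these came Cxcl2 (28.1) and Cxcl1 (26.9). These are means of all 8 corneas, and the order did not hold in each strain. In C57BL/6N, Cxcl14 with 88.8 was below Cxcl16 (128) and Ackr3 (126), and Cxcl2 had 53.1 there against 3.03 in BALB/cN.

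**Figure D1:**
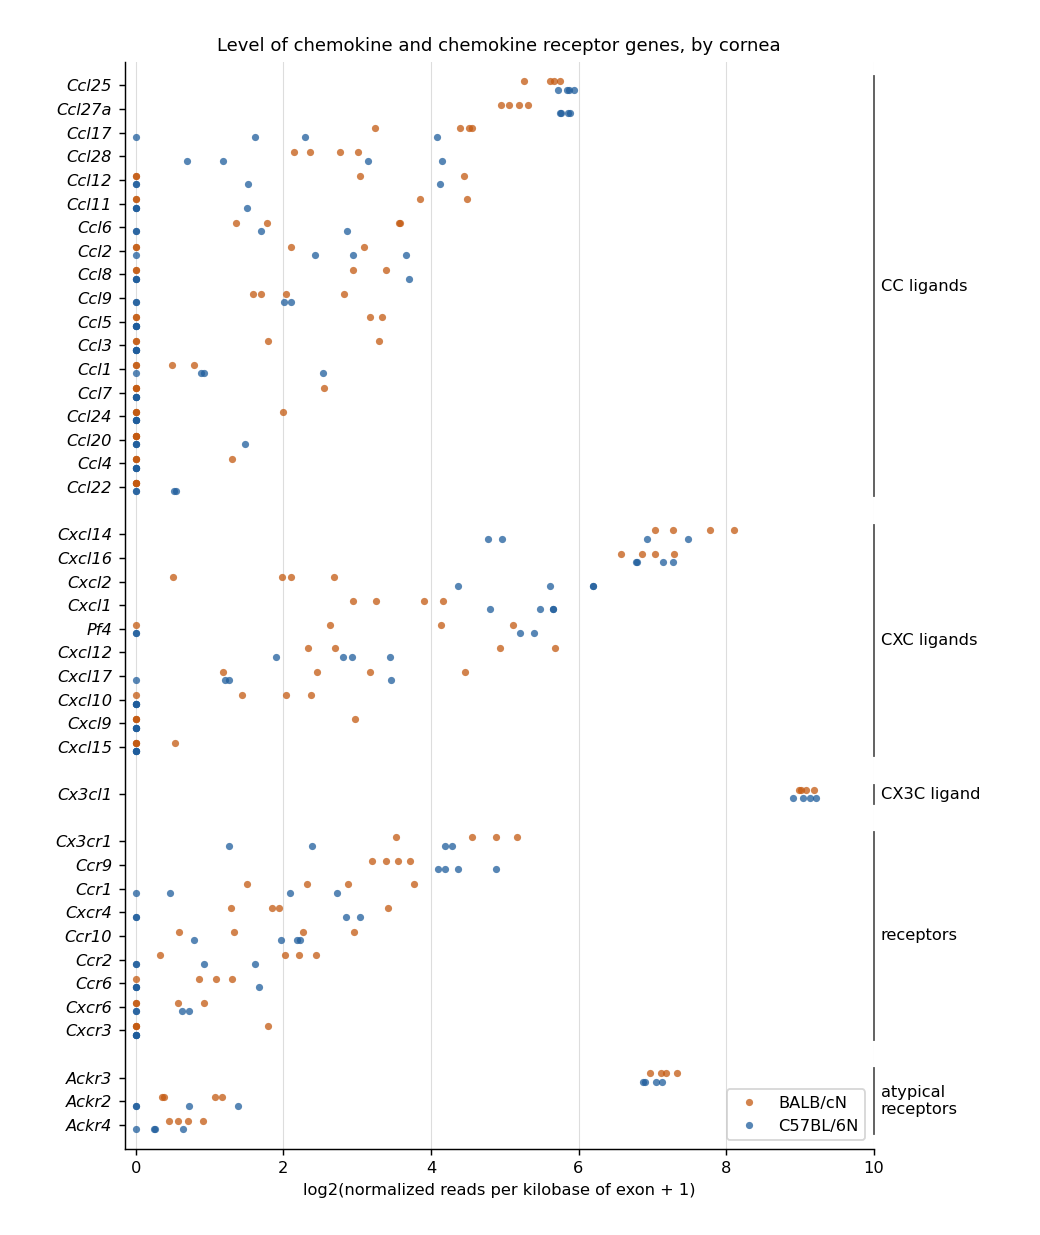
Level of 41 of the 42 genes in each cornea, as log2(normalized reads per kilobase of exon + 1), with genes grouped by role and ordered by mean level (orange points, 4 BALB/cN corneas; blue points, 4 C57BL/6N corneas). Cx3cl1 stands above all other members in every cornea, and 26 genes average fewer than 10 normalized reads.

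The comparison of the strains asked which members of the family differ between naive corneas of strains that the study chose for their unlike lymphatic vessels. Of the 42 members, 34 averaged 0 or more on the rlog scale and were tested together with all other genes. The neutrophil-attracting ligands Cxcl1 and Cxcl2 were lower in BALB/cN at an adjusted p of 0.01 or less (limma with Benjamini-Hochberg adjustment), and no member was called higher. That is 2 of 34 members, 5.88%, against 5.74% of all 25402 genes tested, so the share of the family was close to the background. By direction, 2.91% of all genes were called lower and 2.83% higher in BALB/cN. The normalized reads of the strains did not overlap in 4 members, Cxcl1, Cxcl2, Ccl27a and Ccr9, all lower in BALB/cN. These are 11.8% of the members tested, against 17.7% of all genes. An unadjusted p under 0.05 was reached by 8 members (23.5%) and by 23.7% of all genes tested. The median difference of the tested members was 0.030 on the rlog scale and that of all genes was 0.0077. Because the RNA was taken from whole tissue, fewer cells of a type and less RNA per cell cannot be told apart in any of these values.

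**Figure D2:**
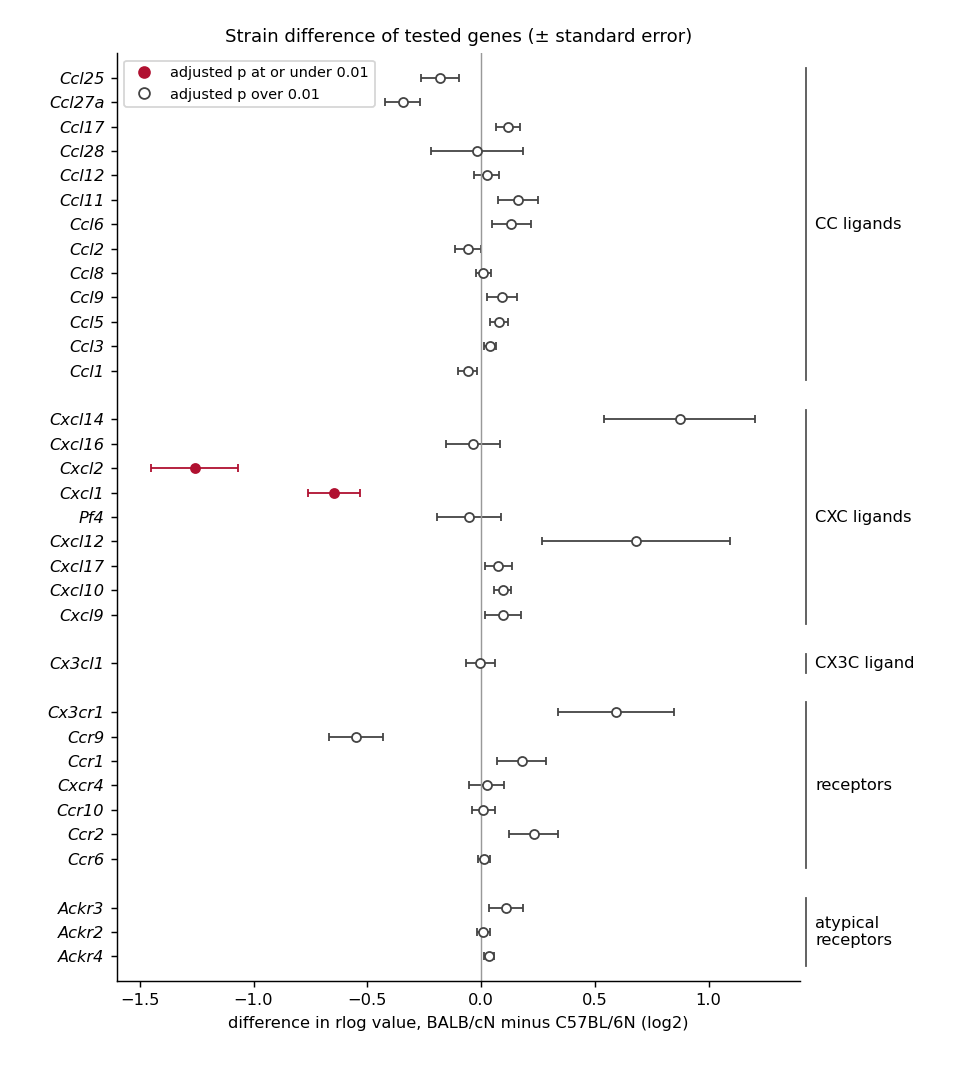
Difference in rlog value (BALB/cN minus C57BL/6N, log2) with its standard error for 33 of the 34 tested members, grouped by role. Filled red points mark Cxcl2 and Cxcl1, the 2 members with an adjusted p of 0.01 or less, both lower in BALB/cN; open points did not pass.

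Cxcl1 and Cxcl2 attract neutrophils through the receptor Cxcr2, and both are induced by inflammatory signals. Cxcl2 (ENSMUSG00000058427) lies on the plus strand of chromosome 5 from 90903871 to 90905938 (GRCm38). It had 1, 7, 12 and 7 reads in BALB/cN corneas 1 to 4 and 147, 150, 32 and 94 reads in C57BL/6N corneas 1 to 4. Every C57BL/6N cornea was above every BALB/cN cornea, and C57BL/6N cornea 3 was the lowest of its strain. The means were 6.26 ± 4.27 and 109.9 ± 52.0 normalized reads (SD, n = 4 each), a 17.5-fold lower level in BALB/cN. The rlog difference was -1.26 (SE 0.19, adjusted p = 0.00243 from limma).

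Cxcl1 (ENSMUSG00000029380) lies on the same strand from 90891241 to 90893115, just before Cxcl2. It had 37, 30, 17 and 13 reads in the BALB/cN corneas and 91, 93, 40 and 77 in the C57BL/6N corneas. The strains did not overlap here either, with BALB/cN cornea 1 the nearest to C57BL/6N cornea 3. The means were 21.6 ± 8.87 and 79.4 ± 19.97 normalized reads (SD, n = 4), 3.67-fold lower in BALB/cN. On the rlog scale Cxcl1 differed by -0.65 (SE 0.11, adjusted p = 0.00564 from limma). For each of Cxcl1 and Cxcl2, an exact two-sided permutation test gave p = 0.0286, the smallest that 4 corneas against 4 allow.

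Both calls lay close to the threshold. Without BALB/cN cornea 1 neither gene passed (adjusted p = 0.0119 for Cxcl2 and 0.0105 for Cxcl1 from limma), and Cxcl1 also missed it without any other single cornea except C57BL/6N cornea 3. With p-values set against an empirical null, whose width comes from the central part of the statistics of all genes tested, neither passed (adjusted p = 0.712 for Cxcl2 and 0.789 for Cxcl1 from limma). No gene of the whole comparison passed with this null, so it does not set Cxcl1 and Cxcl2 apart from other genes. In limma voom on the reads, Cxcl1 passed and Cxcl2 did not (adjusted p = 0.0132), while its fold ranged from 13.6 to 24.0 as single corneas were removed.

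The balance of the 2 ligands differed too. Per kilobase, the ratio of Cxcl2 to Cxcl1 within a cornea was 0.025, 0.212, 0.640 and 0.488 in BALB/cN and 1.46, 1.46, 0.725 and 1.11 in C57BL/6N. Thus Cxcl2 was below Cxcl1 in all 4 BALB/cN corneas and above it in 3 of 4 C57BL/6N corneas. The ranges did not overlap, but their nearest values were 0.640 and 0.725. The BALB/cN ratios rest on 1 to 12 Cxcl2 reads per cornea, and the ratio was not tested. The conjunctival keratins moved in the same direction between the strains as these ligands, whereas Muc5ac lay the other way (means of 260.4 and 1.52 normalized reads in BALB/cN and C57BL/6N), and their part in the result was not tested. Within C57BL/6N, the list of conjunctival markers was also lowest in cornea 3 (13221 normalized reads). It was highest in cornea 4 (19799), where Cxcl2 (99.5) and Cxcl1 (81.5) were below their values in corneas 1 and 2. Within BALB/cN the list was highest in cornea 4 (2536), the lowest of that strain in Cxcl1 (12.6). Neutrophil markers did not accompany the ligands, since Ly6g, Retnlg and Mpo were at 0 in every cornea and Csf3r, the receptor of granulocyte colony-stimulating factor, had 7 to 27 reads in BALB/cN and 0 to 10 in C57BL/6N. Their receptors Cxcr1 and Cxcr2 were at 0 in all corneas, as were the neighbouring ligands Cxcl3 and Cxcl5. A count of 0 allows up to 3 reads, which is 2.57 to 3.79 normalized reads in these libraries and covers counting error only.

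**Figure D3:**
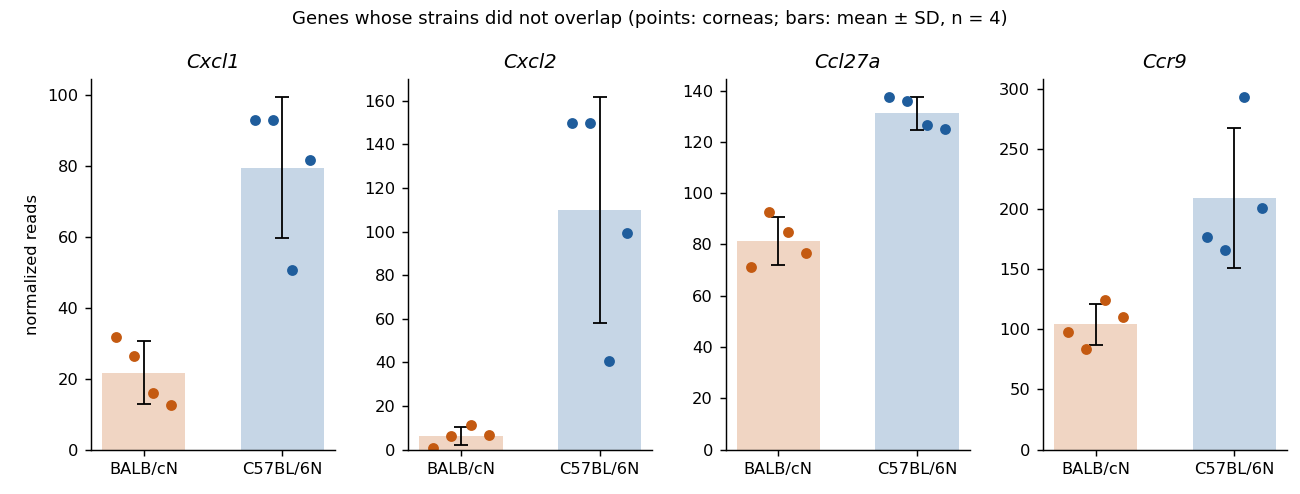
Normalized reads of Cxcl1, Cxcl2, Ccl27a and Ccr9 in each cornea (points), with the strain mean (bar) and SD (error bar), n = 4 corneas per strain. In each gene all 4 BALB/cN corneas lie below all 4 C57BL/6N corneas, and the fold between the strain means is largest for Cxcl2 (17.5-fold, means 6.26 and 109.9).

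The 250 bases before the start of Cxcl1, Cxcl2 and Cxcl3 are shown. Cxcl1 and Cxcl2 were both lower in BALB/cN, while Cxcl3, from the same gene cluster, had no read. The interferon-inducible ligand Cxcl10, further along chromosome 5, is shown for contrast. They come from RefSeq (GRCm38.p6), 5′ to 3′ on the strand of the gene. Capitals mark GGAATTTCC, a form of the site bound by NF-kB, on either strand, and in Cxcl10 also AAANNGAAA, a short form of the interferon response element. The windows are chr5:90890995-90891244, chr5:90903649-90903898 and chr5:90785851-90786100 on the plus strand and chr5:92348890-92349139 on the minus strand.
Cxcl1: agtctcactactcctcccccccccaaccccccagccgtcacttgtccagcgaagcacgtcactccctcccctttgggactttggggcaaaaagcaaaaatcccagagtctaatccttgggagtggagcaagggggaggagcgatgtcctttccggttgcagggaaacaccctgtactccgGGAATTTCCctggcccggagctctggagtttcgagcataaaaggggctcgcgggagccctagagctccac
Cxcl2: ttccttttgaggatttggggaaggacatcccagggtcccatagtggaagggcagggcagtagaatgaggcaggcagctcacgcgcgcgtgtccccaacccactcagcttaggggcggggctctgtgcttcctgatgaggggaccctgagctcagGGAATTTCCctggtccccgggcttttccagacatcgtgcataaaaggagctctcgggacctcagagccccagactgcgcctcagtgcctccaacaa
Cxcl3: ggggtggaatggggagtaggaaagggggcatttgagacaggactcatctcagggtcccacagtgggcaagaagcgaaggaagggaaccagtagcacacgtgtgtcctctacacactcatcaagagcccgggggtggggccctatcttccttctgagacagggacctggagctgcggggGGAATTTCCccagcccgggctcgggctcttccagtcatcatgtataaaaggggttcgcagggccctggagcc
Cxcl10: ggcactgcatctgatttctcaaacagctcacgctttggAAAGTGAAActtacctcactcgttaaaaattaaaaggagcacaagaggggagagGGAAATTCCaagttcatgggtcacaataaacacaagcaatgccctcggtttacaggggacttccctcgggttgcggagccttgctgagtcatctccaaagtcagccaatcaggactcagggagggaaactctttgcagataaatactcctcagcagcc

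Counted from the start site, the first of these motifs began at -70 in Cxcl1, -96 in Cxcl2 and -72 in Cxcl3, and on the opposite strand at -158 in Cxcl10. It occurred in 94 of 32851 windows of this length before RefSeq starts (0.286%). Of the 32 members with an entry, Cxcl1, Cxcl2 and Cxcl10 held it. The interferon motif began at -212 in Cxcl10 and was found in 9.37% of all windows. The motifs did not overlap each other. The longest run shared by the Cxcl1 and Cxcl2 windows was 14 bases, gggaatttccctgg, and it spans the motif. A match is a description of the letters only, and the strains' own sequences of these windows were not analysed here.

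Other CXC ligands varied more within a strain than between strains. Cxcl14, a chemokine made by many epithelia, had 238, 281, 400.0 and 503 normalized reads in BALB/cN and 221, 325, 48.0 and 55.0 in C57BL/6N. The low values were those of C57BL/6N corneas 3 and 4, and the other C57BL/6N corneas fell within the BALB/cN range or just below it. Its rlog difference was 0.87 (SE 0.33, adjusted p = 0.144 from limma), and without corneas 3 and 4 of C57BL/6N the ratio of the means fell from 2.19 to 1.303. Cxcl12, the ligand of Cxcr4 and Ackr3, had 242 and 410 normalized reads in BALB/cN corneas 1 and 4 and between 22.2 and 80.5 in the other 6. These same BALB/cN corneas had the highest sums of blood vessel markers (255 and 691, against 32.9 to 214), of lens markers (6339 and 2796, against 213 to 521) and of pigment cell markers (19051 and 43062, against 209 to 3738). In the blood vessel list Pecam1 and Cdh5 averaged higher in BALB/cN, whereas Tie1 averaged lower (35.5 normalized reads in BALB/cN, 133 in C57BL/6N). The part of these marker lists in the Cxcl12 values was not tested. Cxcl12 differed by 0.68 on the rlog scale (SE 0.41, adjusted p = 0.359 from limma).

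Cxcl16, a membrane-bound ligand of Cxcr6, was even between the strains, at 374 ± 77.0 and 387 ± 69.2 normalized reads (SD, n = 4). Cxcl16 differed by -0.036 on the rlog scale (SE 0.12, adjusted p = 0.890 from limma). It has 18.3% of its exon bases under a gene of the opposite strand, Zmynd15, and whether strand was used in counting is not stated in the sources used here. Its receptor Cxcr6 had 5 reads in all 8 corneas together. Pf4, or platelet factor 4, had 14, 0, 4 and 25 reads in BALB/cN and 29, 26, 0 and 0 in C57BL/6N, with the strains overlapping. The platelet list was mixed. Gp9 was at 0 in every cornea, whereas Itga2b had 183 to 252 reads in BALB/cN and 174 to 235 in C57BL/6N. Cxcl17, a mucosal chemokine, had 1 to 17 reads in BALB/cN and 0 to 6 in C57BL/6N, and Cxcl15 had 1 read in all.

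The ligands of the T cell receptor Cxcr3 that interferon induces had reads in BALB/cN corneas alone, at very low counts. Cxcl10 had 11, 8, 0 and 4 reads in BALB/cN and none in C57BL/6N. Cxcl9 had 24 reads in BALB/cN cornea 1 and none in the other 7. Cxcl11, outside the family as annotated, had 44, 0, 5 and 2 reads in BALB/cN and none in C57BL/6N. BALB/cN cornea 1 was thus the highest for all 3 genes, and it also held all 5 reads of the receptor Cxcr3. Since BALB/cN corneas with 0 reads occurred in each, the strains overlapped. The adjusted p from limma was 0.145 for Cxcl10, 0.514 for Cxcl9 and 0.372 for Cxcl11.

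A list of 10 interferon-stimulated genes stood apart between the strains, and 9 of them were called higher in BALB/cN, with a median rlog difference of 2.24. Among them were Irf7 (1.93) and Isg15 (2.54). In the list sum, BALB/cN corneas 1 to 4 had 54272, 62330, 40067 and 67782 normalized reads, and the C57BL/6N corneas had 15711 to 21425. Of 8 NF-kB response genes, none was called, with a median difference of 0.029. The members did not lie on one side, since Nfkbia, the inhibitor that NF-kB itself induces, differed by -0.24 (adjusted p = 0.0683 from limma), and the subunits Nfkb2 and Relb by 0.21 and 0.25 (adjusted p = 0.0426 and 0.0999 from limma).

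Cx3cl1, or fractalkine, is a membrane-bound chemokine that epithelia and nerves carry and that acts on Cx3cr1 of macrophages. It lies on chromosome 8 from 94772009 to 94782427. It had 2301, 2137, 1999 and 2028 normalized reads in BALB/cN and 2076, 1878, 2341 and 2204 in C57BL/6N. The strains overlapped throughout. The means were 2116 ± 137 and 2125 ± 197 (SD, n = 4), with an rlog difference of -0.0027 (SE 0.064, adjusted p = 0.986 from limma). The C ligand Xcl1 was at 0 in all corneas, as was its receptor Xcr1.

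Among the 18 CC ligands, 15 had fewer than 10 normalized reads on average, 13 were tested and none was called. The 3 more abundant ones were Ccl25, Ccl27a and Ccl28, ligands that attract lymphocytes to epithelia. Ccl27a (ENSMUSG00000073888), which acts on Ccr10, had 71.1, 92.6, 84.7 and 76.5 normalized reads in BALB/cN and 138, 136, 126 and 124.9 in C57BL/6N. Each strain kept within a narrow range and they did not overlap. The means were 81.3 ± 9.42 and 131 ± 6.45 (SD, n = 4), 1.61-fold lower in BALB/cN. The rlog difference was -0.34 (SE 0.076, adjusted p = 0.0174 from limma), past the threshold of 0.01 only in the fit without a variance trend (adjusted p = 0.00306). Its reads can be shared with near-identical copies, since 26.5% of its windows of 100 bases occur in the transcripts of Ccl27b and other copies, so its value is uncertain. Ccl27b itself, with 97.9% of its windows shared, was at 0 in all corneas.

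Ccl25 had 371, 394, 359 and 277 normalized reads in BALB/cN and 427, 385, 449 and 421 in C57BL/6N. Only C57BL/6N cornea 2 fell within the BALB/cN range. Ccl25 differed by -0.18 on the rlog scale (SE 0.084, adjusted p = 0.229 from limma). Ccl28, the mucosal ligand of Ccr10, had 40, 23, 30 and 17 reads in BALB/cN and 6, 3, 30 and 77 in C57BL/6N. Its high C57BL/6N values were in corneas 3 and 4, which were poor in keratocyte and leukocyte transcripts, whereas BALB/cN cornea 2, also poor in both, was not the highest of its strain. The rlog difference of -0.017 (SE 0.20, adjusted p = 0.973 from limma) turned to 0.18 without C57BL/6N cornea 4. Ccr10, which Ccl28 shares with Ccl27a, had 1 to 12 reads in BALB/cN and 1 to 6 in C57BL/6N.

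The lymphoid ligands Ccl19, Ccl21a and Ccl21b were at 0 in all corneas, and so was their receptor Ccr7, which guides dendritic cells along lymphatic vessels to lymph nodes. The 0 of the ligands is uncertain. Of the 100-base windows of Ccl21b, 100% occur in copies of it, and the shares are 50.3% for Ccl21a and 39.3% for Ccl19. Reads that fit several copies equally cannot be assigned to one gene. Ccl21c has its only entry on an unplaced scaffold and was at 0 too.

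The inflammatory CC ligands were rare in both strains. A cluster of 11 members lies on chromosome 11 between 82.04 and 83.66 Mb, and none of them exceeded 24 reads in any cornea. Summed over the 11, BALB/cN corneas had 86, 12, 19 and 94 reads and C57BL/6N corneas 39, 24, 22 and 2. BALB/cN corneas 1 and 4 were highest, as they were for Cxcl12. The monocyte attractant Ccl2 had 0 to 10 reads in BALB/cN and 0 to 13 in C57BL/6N. The eosinophil attractant Ccl11 had 17, 0, 0 and 24 reads in BALB/cN and 0, 2, 0 and 0 in C57BL/6N. Ccl5, a ligand made by T cells, had 9 reads each in BALB/cN corneas 1 and 4 and none in the other 6 corneas. Ccl12, another monocyte attractant, had 0 to 13 reads and Ccl8 0 to 6 over all corneas. Outside the cluster, Ccl17, a dendritic cell product that acts on Ccr4, had 12, 5, 12 and 12 reads in BALB/cN and 8, 2, 0 and 1 in C57BL/6N. Only C57BL/6N cornea 1 overlapped with BALB/cN, and the rlog difference was 0.12 (SE 0.051, adjusted p = 0.197 from limma). Ccr4 was at 0 in all corneas.

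Of the 10 receptors that signal through G proteins, 8 were tested and none was called. Cx3cr1, the fractalkine receptor of resident macrophages, was the highest of them over all corneas, at 17.2 normalized reads per kilobase. It was also the highest in BALB/cN (24.1), but in C57BL/6N it had 10.3, below Ccr9 with 20.4. It had 128, 47.2, 102 and 158 normalized reads in BALB/cN and 77.4, 82.9, 19.0 and 6.35 in C57BL/6N. The lowest in each strain were the corneas poor in leukocyte transcripts, BALB/cN cornea 2 and C57BL/6N corneas 3 and 4. Over all corneas Cx3cr1 differed by 0.59 on the rlog scale (SE 0.26, adjusted p = 0.195 from limma). Between the 3 BALB/cN and 2 C57BL/6N corneas left when these were taken out, the difference was 0.34 (SE 0.12, adjusted p = 0.169 from limma), and the ratio of the means fell from 2.34 to 1.61. With the mean rlog value of the leukocyte or of the keratocyte markers as a covariate the difference was 0.38 in both fits (adjusted p = 0.0104 and 0.0444 from limma), which also missed the threshold. Cx3cl1 was not low in these corneas. Per kilobase, Cx3cl1 exceeded Cx3cr1 by 14.7 to 51.9 times in BALB/cN and by 26.0 to 398 times in C57BL/6N.

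The receptors of inflammatory monocytes showed the same split of corneas. Ccr2, which draws monocytes from the blood, had 24, 2, 26 and 31 reads in BALB/cN and 6, 14, 0 and 0 in C57BL/6N. Ccr1 had 21, 6, 12 and 37 reads in BALB/cN and 9, 16, 0 and 1 in C57BL/6N. In both genes BALB/cN cornea 2 was the lowest of its strain and C57BL/6N corneas 3 and 4 held at most 1 read. Cxcr4, the signalling receptor of Cxcl12, had 6, 3, 5 and 18 reads in BALB/cN and 11, 13, 0 and 0 in C57BL/6N. Summed over these 3 receptors and Cx3cr1, the corneas had 200, 65, 151 and 249 reads in BALB/cN and 102, 126, 15 and 7 in C57BL/6N. The strains overlapped in the sum. The adjusted p from limma was 0.232 for Ccr2, 0.360 for Ccr1 and 0.883 for Cxcr4.

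The general macrophage list, with the abundant Cd68 and Itgam among its 10 genes, varied less than these receptors, from 3251 to 4013 normalized reads in BALB/cN and from 3174 to 3785 in C57BL/6N. Its member Mrc1 had 17 to 141 reads in BALB/cN and 3 to 145 in C57BL/6N. Cd68 and Itgam made up most of that sum. Dendritic cell markers summed to 37.6 to 73.6 in BALB/cN and 15.9 to 102 in C57BL/6N, and T cell markers to 0 to 9.69 and 7.99 to 19.4. NK cell markers were at 0 in all corneas. The lymphatic list was 4047 to 4514 in BALB/cN and 2256 to 3696 in C57BL/6N, and most of this sum was Pdpn (means 4179 and 2925). Lyve1 had at most 8 reads in any cornea, and Prox1 was even (means 30.4 and 28.5). Flt4 had 19 to 85 reads in BALB/cN and 0 to 12 in C57BL/6N. Its rlog difference of 0.67 was not called (adjusted p = 0.0230 from limma).

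**Figure D4:**
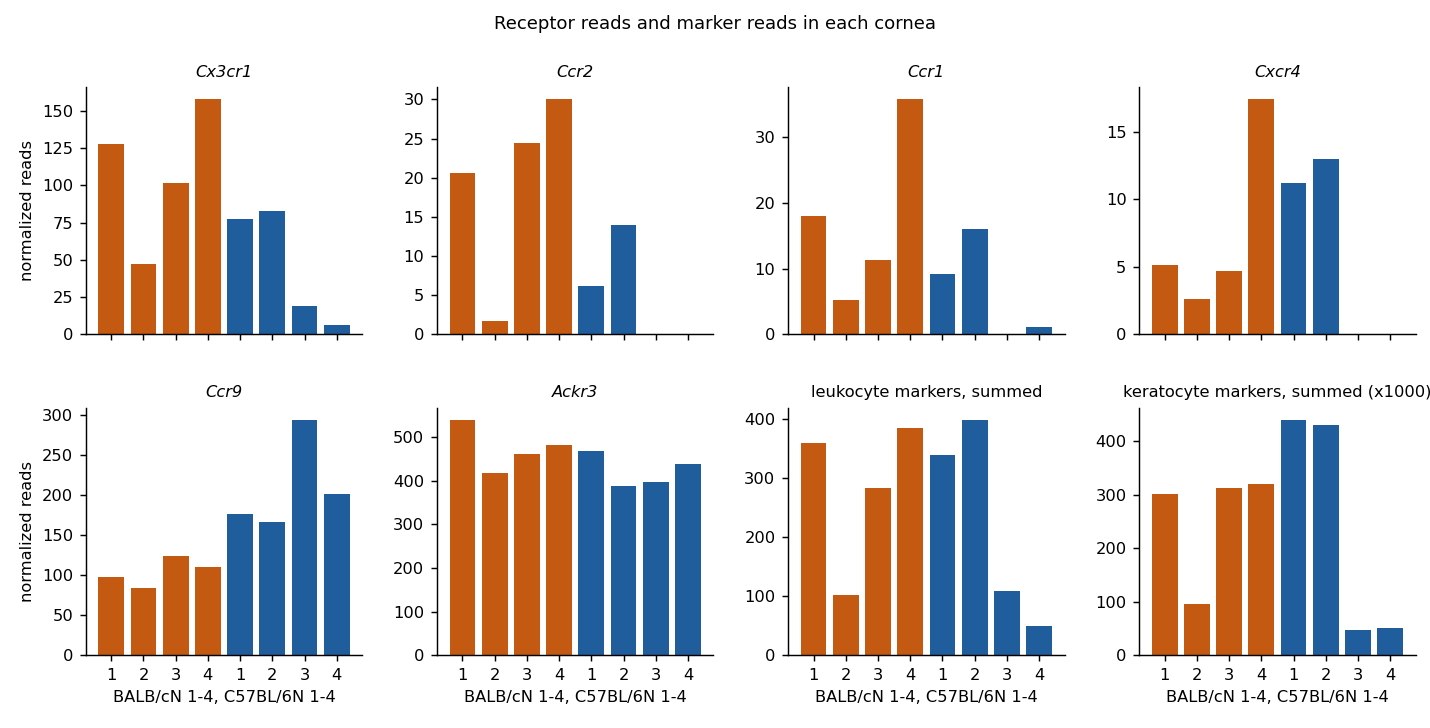
Normalized reads of 6 receptors and the summed normalized reads of 5 leukocyte markers and 7 stromal keratocyte markers (the latter divided by 1000) in BALB/cN corneas 1 to 4 (orange bars) and C57BL/6N corneas 1 to 4 (blue bars). Cx3cr1, Ccr2 and Ccr1 are lowest in BALB/cN cornea 2 within its strain and at or near 0 in C57BL/6N corneas 3 and 4 except for Cx3cr1 (19.0 and 6.35), whereas Ccr9 is highest in C57BL/6N cornea 3.

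Ccr9, the receptor of Ccl25 on gut-homing T cells, had a different pattern. It had 97.7, 83.9, 124 and 110.4 normalized reads in BALB/cN and 176, 166, 293 and 201 in C57BL/6N. All BALB/cN corneas were below all C57BL/6N corneas, and C57BL/6N corneas 3 and 4, nearly without Ccr2 reads, were the highest of all. The means were 104 ± 17.3 and 209 ± 58.0 (SD, n = 4), 2.01-fold lower in BALB/cN. The rlog difference was -0.55 (SE 0.12), which missed the threshold of 0.01 (adjusted p = 0.0171 from limma). The annotated gene (ENSMUSG00000029530) runs from 123678439 to 123784330 on the plus strand of chromosome 9. In it, 19.0% of the exon bases lie under genes of the opposite strand, Lztfl1 among them, so that its reads cannot be told apart from theirs if strand was not used in counting. Of the other receptors, Ccr6 had 0 to 4 reads in each cornea. Receptors at 0 in all corneas were Ccr3, Ccr4, Ccr7, Ccr8, Cxcr1, Cxcr2, Cxcr5 and Xcr1.

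The atypical receptors were dominated by Ackr3, which takes up Cxcl12. It had 539, 417, 462 and 482 normalized reads in BALB/cN and 468, 389, 398 and 439 in C57BL/6N, with overlapping strains. The means were 475 ± 50.7 and 423 ± 36.7 (SD, n = 4), and the rlog difference was 0.11 (SE 0.075, adjusted p = 0.419 from limma). Its level per kilobase exceeded that of Cxcl12 in all 8 corneas, where the ratio of Cxcl12 to Ackr3 was between 0.021 and 0.348. This ratio depends on the merged exon lengths, 8176 bases for Cxcl12 and 3348 for Ackr3. Ackr2, which removes inflammatory CC ligands, had 0 to 4 reads in each cornea. Ackr4, which removes Ccl19, Ccl21 and Ccl25, had 2 to 5 reads in BALB/cN and 0 to 3 in C57BL/6N. Ackr1 was at 0 in all corneas.

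Genes that work with the family were described from lists. Of 9 genes related to chemokines but outside the family, 8 were tested and 1 was called. Ccrl2, a receptor-like protein that binds chemerin without signalling, had 180 to 289 reads in BALB/cN and 6 to 54 in C57BL/6N, with an rlog difference of 1.57 (adjusted p = 0.000482 from limma). Its ligand chemerin, encoded by Rarres2, had 22 to 166 and 3 to 141 reads, and the signalling chemerin receptor Cmklr1 had 301 to 573 and 61 to 817. Of 19 tested genes that carry the signal of chemokine receptors, Gnai2, a G protein alpha subunit, was called higher in BALB/cN (rlog difference 0.27, adjusted p = 0.00569 from limma) and Arrb1, a beta-arrestin that ends the signal, was called lower (rlog difference -0.55, adjusted p = 0.00109 from limma). The median difference of that list was -0.022. The leukocyte-restricted Rac2, Dock2 and Pik3cg of the list were not called. Plcb2, with 31 to 57 reads in BALB/cN and 7 to 18 in C57BL/6N, also missed the threshold (rlog difference 0.45, adjusted p = 0.0158 from limma). Grk6 lay the other way and was not called either (rlog difference -0.25, adjusted p = 0.0573 from limma). In normalized reads the strains did not overlap in Plcb2 or in Grk6.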

How the data were processed

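After trimming with cutadapt, the authors aligned reads with Tophat2 to a version of GRCm38 made for each strain, used Lapels to return to reference positions, and obtained counts per Ensembl gene with HTSeq 0.7.1, with no strand setting stated. The values deposited by the authors are the rlog transform of DESeq2, in log2 units adjusted for library size, and 0 other columns were present.

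Read counts were recovered by inverting the rlog model, with its constants fitted to the same table. Of 31314 genes, 31265 (99.8%) were matched within 0.0001 of the deposited value, all 42 members among them, and each of the 336 member values allowed 1 count only. After a random fraction of a read was added, 0% of 2000 genes matched. Libraries were amplified by PCR, so reads and counting limits cover counting error only. No 2 corneas agreed within sampling noise (chi-square per gene of 8.44 or more within a strain).

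Strains were compared with limma 3.58.1 in R 4.3.3 (lmFit, eBayes with a variance trend, Benjamini-Hochberg adjustment) over genes that averaged 0 or more on the rlog scale, calling an adjusted p of 0.01 or less. Single genes were also compared by an exact permutation test in scipy 1.17.1. The procedures were also run on simulated counts. These had less spread between corneas than the data and no differences in tissue content, so that run does not show how the procedures perform here. Members and lists by role, pathway and cell type were chosen with earlier results of these data known. Genes were named if called, if the strains did not overlap, if among the 5 highest per kilobase of their role, if 1 cornea stood apart, or if they have near-identical copies. Of 31314 genes, 31302 had an entry in the GENCODE annotation of GRCm38 used for names and positions. The values of 1 member are not reported here.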

Additional observations from a re-analysis of the deposited data

Results flagged for a closer look

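In these values 1 cornea lay far from the other 3 of its strain, by the gap to the nearest cornea divided by the range of the strain. Among 95 groups of 4 corneas examined (members with at least 10 reads in all, and cell type list sums), 10 passed Dixon's critical value for 4 samples. For continuous normal values chance gives about 1 in 20. That share does not hold for small counts, where 3 corneas without a read give 1 whatever the count of the other. No excess over chance can therefore be read from the 10. Cxcl9 reached 1 through the 24 reads of BALB/cN cornea 1. Ccl8 (6 reads in C57BL/6N cornea 1), Ccl11 (2 reads in C57BL/6N cornea 2) and Ccr6 (4 reads in C57BL/6N cornea 3) also reached 1, since the other 3 corneas had none. In C57BL/6N cornea 3 the value was 0.887 for Ccl12 (7 reads) and 0.860 for Cxcl17 (6 reads). Cxcr4 gave 0.830 in BALB/cN cornea 4 with its 18 reads. BALB/cN cornea 2 was low in stromal keratocyte markers (0.923) and in corneal endothelium markers (0.894, with 14386 normalized reads against 23102 in the nearest cornea). BALB/cN cornea 4 was the highest of its strain in conjunctival markers (0.862).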

How the results depend on the processing

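The 2 calls, both lower in BALB/cN, were also found with a robust fit, no filter, a mean of at least log2(10), median centring, quantile normalization and either covariate (stromal or leukocyte markers). Without a variance trend there were 3. With p-values recalibrated to an empirical null there were 0 in the family and 0 of all genes. An adjusted p of 0.05 gave 4 of the 34 members tested, all lower (Cxcl1, Cxcl2, Ccl27a, Ccr9). It gave 2842 of all 25402 genes tested, so the share of the family was again close to the background. Voom on the reads gave 1. Leaving out each cornea in turn gave 0 to 2, and 0 without BALB/cN cornea 1. Of the alternatives chosen after seeing the data, leaving out C57BL/6N corneas 3 and 4 gave 2 and leaving out BALB/cN cornea 2 as well gave 1, Cxcl2. With the replicate block, 0 members were called (adjusted p = 0.0233 for Cxcl2 and 0.0193 for Cxcl1 from limma). Deviations from the strain means correlated at 0.305, -0.530, -0.203 and -0.454 between same-numbered corneas. These values showed no common pairing by number, but they cannot exclude one, since the corneas differed in tissue content. The cause of the changes in the number of calls was not tested.

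Over all genes, the calls went from 1458 to 554 with the replicate block, 958 with median centring (413 higher and 545 lower in BALB/cN), 2367 with the stromal covariate, 2842 at an adjusted p of 0.05, 953 to 1163 without 1 cornea, 845 without C57BL/6N corneas 3 and 4 and 852 without BALB/cN cornea 2 as well. No difference of the 16 members with 10 or more normalized reads on average changed sign while called. Depth limits the 26 members below 10 normalized reads, where a strain difference was not detectable unless it was large.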
